A study of Mus musculus with 8 samples.

Results

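RNA on GFP-tagged ribosomes of cells labelled from the VTA was compared with unpurified RNA of the same region, the medial prefrontal cortex (mPFC) of the mouse. The comparison uses 4 of the 8 arrays of the series, chosen by their source labels: 2 pull-downs (source VTA-projecting) and 2 inputs (source VTA-projecting-input). All mice of the series were Cre-dependent ribosome TRAP mice injected with CAV2-Cre, a canine adenovirus carrying Cre recombinase, in the VTA for these 4 arrays and in the NAC for the other 4. The pull-down RNA was isolated from mPFC with GFP-trap, a GFP-binding reagent, and the inputs carry the entry none (input) for that reagent, although their description also speaks of translating mRNA. Strain, age, the promoter of the ribosomal transgene and the number of animals per array are not given in the labels. The 4 NAC arrays also enter the choice of genes to test and the estimate of spread behind each p-value. Whether a group's 2 arrays stand for different animals is not stated. Each p-value thus reflects the spread between arrays within groups alone, which may be technical.

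Translating ribosome affinity purification (TRAP) isolates tagged ribosomes with the mRNA they hold. An mRNA richer in the tagged cells than in the whole region is raised in the pull-down over the input. An mRNA richer in untagged cells is lowered. CAV2 enters axon terminals and is transported to the soma, which turns the tag on in cells with an axon at the injected site. Cortical axons to the midbrain come mainly from layer 5 pyramidal tract neurons, a class that depends on the transcription factors Fezf2 and Bcl11b (Ctip2), whereas intratelencephalic neurons project within cortex and striatum. Small nucleolar RNAs, which guide the modification of ribosomal RNA in the nucleolus, are not mRNAs and are not translated. In bulk RNA, fewer cells of a type and less RNA per cell cannot be told apart.

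A microRNA gene had the largest rise of all and other microRNA genes fell, so the mature sequences of those described further on are shown here from RefSeq (GRCm38.p6), where the table held them. Capitals mark the seed, bases 2 to 8, which pairs with target mRNAs. The genes of miR-181d, miR-92b and miR-212 rose in the pull-down, and the tested genes of miR-9 and the gene of miR-493 fell. The labels do not say whether a probe set of a microRNA gene reads the precursor, a host transcript or the mature RNA.
miR-181d-5p: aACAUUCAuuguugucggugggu
miR-92b-3p: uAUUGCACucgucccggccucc
miR-9-5p: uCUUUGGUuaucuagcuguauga
miR-212-3p: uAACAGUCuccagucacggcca
miR-493-3p: uGAAGGUCcuacugugugccagg
They lie at chr8:84178759-84178781 on the minus strand (Mir181d), chr3:89227126-89227147 on the minus strand (Mir92b), chr11:75173443-75173464 on the plus strand (Mir212) and chr12:109580283-109580305 on the plus strand (Mir493). Among the tested genes, Mir9-1, at chr3:88215613-88215635 on the plus strand, and Mir9-2, at chr13:83738821-83738843 on the plus strand, encode the miR-9-5p sequence. The 5 seeds differ from one another.

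Values are log2 expression as the authors deposited them, and a difference is pull-down minus input on that scale, so 1 is a doubling. Of 22180 genes with a probe set of exactly 1 symbol, 11712 passed the filter on dim values and were tested with limma, at a Benjamini-Hochberg adjusted p of 0.05. The filter kept genes above the array median on at least 2 of the 8 arrays, an array median being that of the named genes on the array (5.86 to 5.98). In the VTA pull-down 3671 genes changed (31.3%), of which 637 rose (5.44% of genes tested) and 3034 fell (25.9%). Past a 2-fold change lay 22 of the genes that rose (0.188%) and 62 of those that fell (0.529%). Both pull-downs lay above both inputs for 1877 genes (16.0%) and below both for 6213 (53.0%). The median difference over all tested genes was -0.15. Lists are read against it, and their counts against the 5.44% of tested genes that rose and the 25.9% that fell. Centring every array on its median over the tested genes moved that median to 0.04 and the counts to 1719 higher (14.7%) and 1083 lower (9.25%), quantile normalization gave -0.07 with 953 higher and 1846 lower, and centring on all probe sets gave -0.23 with 375 higher and 3850 lower. How the calls divide between higher and lower therefore depends on the scaling.

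Single arrays moved these counts. Leaving out the first VTA input left 79 rises and 336 falls, leaving out the second left 338 and 1603, leaving out the first VTA pull-down left 391 and 1404, and leaving out the second left 537 and 3176. Arrays correlated at 0.981 between the pull-downs, 0.990 between the inputs, and 0.973 to 0.979 between a pull-down and an input, over all probe sets, which are not independent replicates. The median absolute gap per gene was 0.14 between the pull-downs and 0.10 between the inputs. Where 4 counts follow that of a gene list, they are those without the first input, the second input, the first pull-down and the second pull-down, in that order, and centred arrays are arrays centred on the tested genes. A gene said to hold throughout kept its call with each of the 8 arrays left out in turn. Lists share some members, such as Penk, Drd1, Vip and Rgs5, and a shared gene is counted in each list that holds it.

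The largest rise of a ribosomal gene was that of Rpl10a, which encodes the large-subunit protein L10a, commonly fused to GFP in TRAP mice. It lay at 11.94 and 11.95 in the pull-downs and at 9.87 and 10.35 in the inputs. Both pull-downs were higher than either input, by 1.83 on average (SE 0.14, adjusted p = 0.00026), and the call held throughout. The labels do not name the tagged protein, and no probe for GFP was used here.

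Other large rises were a mixed group. Mir5112 lay at 9.19 and 8.55 in the pull-downs and 7.03 and 6.97 in the inputs, a difference of 1.87 (SE 0.20, adjusted p = 0.001). The mitochondrially encoded ND6, a subunit of respiratory complex I transcribed from the opposite DNA strand to the other mitochondrial subunit genes, lay at 11.55 and 11.61 against 9.51 and 10.08. Ywhah, the eta 14-3-3 adaptor protein, lay at 9.83 and 9.66 against 7.60 and 8.56. The choice of the largest rises and falls required groups that do not overlap. The inputs of Ywhah were about 1 log2 unit apart. A further probe set of Ywhah differed by -0.02, so the rise of 1.67 belongs to the brighter probe set alone. The next rises were Mettl7a3 (1.67), the 5S ribosomal RNA gene n-R5s136 (1.60), the tubulin gene Tuba1b (1.41), Mir328 (1.30, which passed the filter through the VTA pull-downs alone), the translation-machinery gene Tma7 (1.25), Tpt1 (1.16), the neuronal transcript Cdr1 (1.11), the ATP synthase gene Atp5d (1.11), the imprinted gene Peg12 (1.09), the zinc finger gene Zfp526 (1.07) and Mir181d (1.05). Of these 15 genes, Mir5112, Rpl10a, Mettl7a3, n-R5s136, Mir328, Tma7 and Peg12 held throughout. The other 8 lost their call without the first VTA input, among them ND6 (1.51, adjusted p = 0.0571), Ywhah (1.19, adjusted p = 0.0653), Tuba1b (1.24, adjusted p = 0.0662) and Tpt1 (0.77, adjusted p = 0.125). Second probe sets of Tpt1 (0.16), Atp5d (0.12) and Zfp526 (-0.27) did not show the rise, and that of Tma7 (1.33) did.

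**Figure D1:**
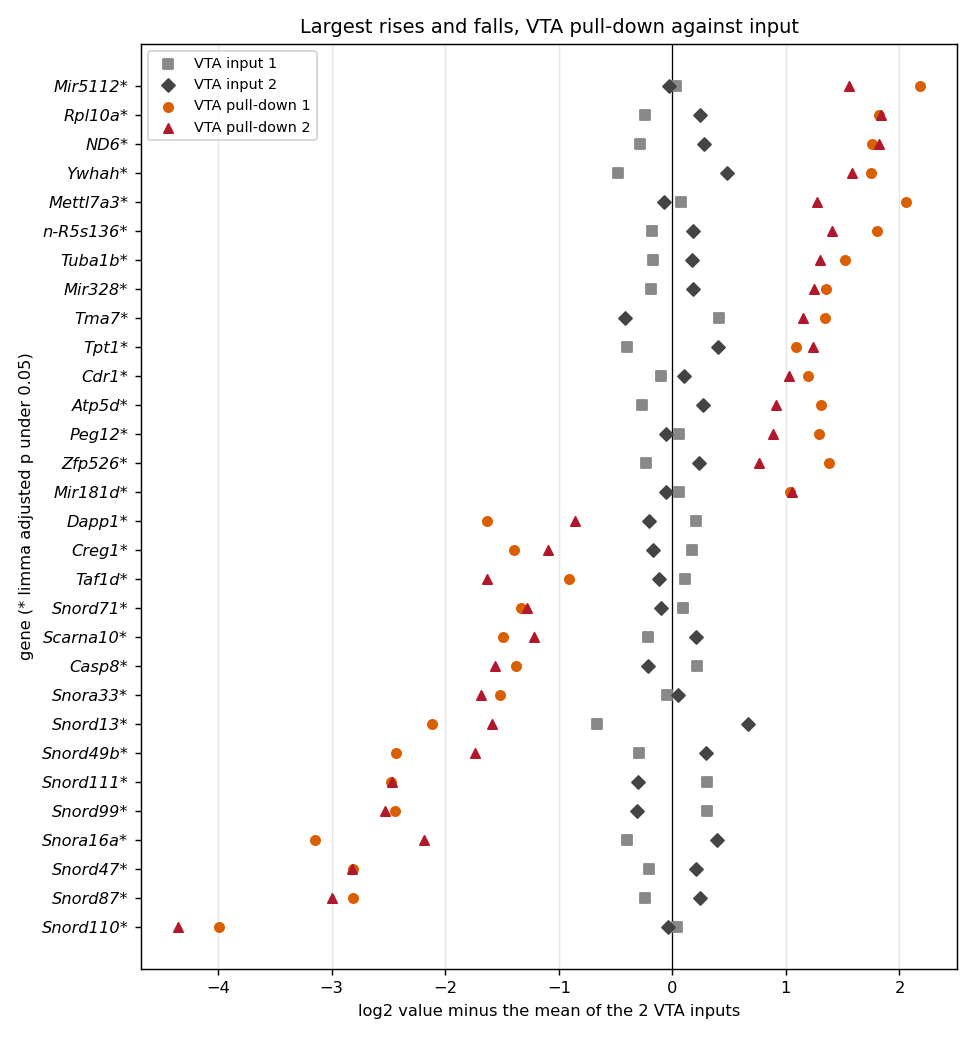
Log2 value of each VTA array minus the mean of the 2 VTA inputs, for the 15 largest rises and 15 largest falls past the threshold. Genes were taken only where the groups did not overlap. Pull-downs (circles, triangles) therefore lie to the right of both inputs (squares, diamonds) for the rises and to the left for the falls. Snord110 is at the far left.

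The largest falls were small nucleolar RNAs. Snord110 lay at 5.39 and 5.03 in the pull-downs and at 9.43 and 9.35 in the inputs, a fall of 4.17 on the log2 scale (SE 0.23, adjusted p = 3.3e-05). Snord47, at 4.82 and 4.81 against 7.42 and 7.84, fell by 2.82. The pull-down levels of both lie under the array medians, so the size of such falls is not exact. Of 39 tested RNAs of the small nucleolar, Cajal body and Y classes, 25 fell (19, 20, 19 and 25 with each VTA array left out, 19 with centred arrays) and 1 rose, and their median was -0.70. Of the 39, 13 passed the filter through inputs alone, so their pull-down levels had to lie under the array medians, and 12 of these are among the falls. A further 1 passed through pull-downs alone, and of the other 25 genes 13 fell and 1 rose, with a median of -0.43. Snord47, Snord87, Snora16a, Snord99, Snord111 and, outside this class, Casp8 are among the genes that passed through inputs alone. Snord87 (-2.91), Snora16a (-2.67), Snord99 (-2.49), Snord111 (-2.47), Snord49b (-2.09), Snora33 (-1.60), the Cajal body RNA Scarna10 (-1.35) and Snord104 (-1.18) held throughout. The Y RNA Rny3, a cytoplasmic partner of the Ro60 protein, also fell (-1.07) and held throughout. Snord23 was the 1 that rose: it lay at 9.93 and 8.69 against 8.10 and 8.54, and without the first pull-down its difference was 0.37 (adjusted p = 0.322). Among the 15 largest falls that were not of this class were Casp8, an initiator of apoptosis (-1.47), Creg1 (-1.25), Dapp1 (-1.24), and Taf1d (-1.27), a factor of RNA polymerase I whose further probe sets differed by -2.82 and -0.65. Casp8 and Creg1 held throughout, whereas Taf1d (-1.16, adjusted p = 0.0772) and Dapp1 (-1.03, adjusted p = 0.0634) lost their call without the first VTA input.

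Nuclear long noncoding RNAs did not move together. Of 12 tested, 3 fell (1, 2, 1 and 3 with each VTA array left out, 1 with centred arrays) and 1 rose (2 with centred arrays), with a median of -0.14 (0.06 with centred arrays), next to -0.15 for all genes. Rmst, at 6.65 and 6.70 against 7.58 and 7.46, fell by 0.84 and held throughout, Rian fell by 0.45 and Snhg14 by 0.47, and Pantr1, which neighbours Pou3f3, rose by 0.55. The last 3 lost their call without the first VTA input. Malat1, retained in nuclear speckles, differed by 0.04, Meg3 by 0.01 and Neat1, the scaffold of paraspeckles, by -0.17, and none of them passed the threshold.

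Several markers of layer 5 pyramidal tract neurons were higher in the pull-down. Of 20 tested, 5 rose (3, 5, 5 and 4 with each VTA array left out, 10 with centred arrays) and 2 fell (0, 1, 0 and 1, and 0 with centred arrays), and the median was 0.14 against -0.15 for all genes. Chst8, a sulfotransferase gene, lay at 8.70 and 8.84 in the pull-downs and at 7.62 and 7.87 in the inputs, a rise of 1.02 (SE 0.11, adjusted p = 0.001). Pou3f1, a POU-domain transcription factor gene, lay at 7.79 and 8.10 against 7.14 and 6.98, a rise of 0.89 (SE 0.12, adjusted p = 0.0023). Tcerg1l lay at 8.01 and 8.11 against 7.45 and 7.32, a rise of 0.67 (SE 0.11, adjusted p = 0.0041). In all 3 genes both pull-downs were above both inputs, and all 3 held throughout.

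Fezf2, the transcription factor that specifies subcerebral projection neurons, lay at 10.16 and 10.24 in the pull-downs and at 9.72 and 9.65 in the inputs, a rise of 0.51 (SE 0.10, adjusted p = 0.0058). Leaving out the first VTA input left it at 0.55 with an adjusted p of 0.0511. Crym, which encodes a thyroid hormone binding protein, rose by 0.36, and lost the call without the first input (0.20, adjusted p = 0.275), without either pull-down (adjusted p = 0.109 and 0.0851) and without either NAC input (adjusted p = 0.0602). Bcl11b differed by 0.28, Bcl6 by 0.26 and Pcp4 by 0.16, and did not pass the threshold on the deposited scale; these 3 passed it with centred arrays. Cdh13, a T-cadherin gene, fell by 0.41 and Cntn6, a contactin gene, by 0.47. Neither passed without the first VTA input (-0.26, adjusted p = 0.19 for Cdh13 and -0.36, adjusted p = 0.263 for Cntn6). The 20 genes thus ranged from -0.47 to 1.02. Both pull-downs lay above both inputs in 10 and below both in 6, against 16.0% and 53.0% of all tested genes.

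**Figure D2:**
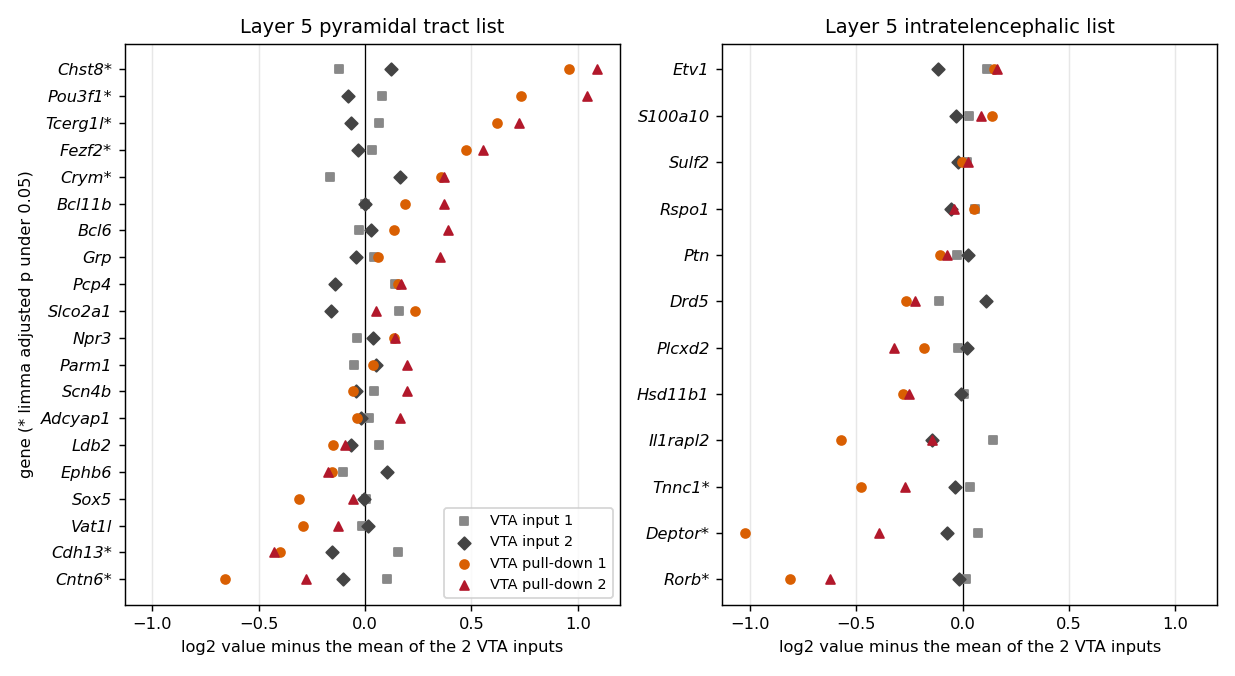
Log2 value of each VTA array minus the mean of the 2 VTA inputs for the tested layer 5 pyramidal tract genes (left) and layer 5 intratelencephalic genes (right). Stars mark genes past the threshold: 5 rises and 2 falls on the left, and 3 falls on the right.

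Of 12 layer 5 intratelencephalic genes 3 fell (1, 2, 1 and 4 with each VTA array left out, 2 with centred arrays), which is near the 25.9% over all genes, and none rose (1 with centred arrays). Their median was -0.25. Rorb, a nuclear receptor gene of layers 4 and 5, lay at 7.98 and 8.17 against 8.81 and 8.77, fell by 0.72 (adjusted p = 0.0024) and held throughout. Deptor, an mTOR inhibitor, lay at 7.68 and 8.31 against 8.78 and 8.63 and fell by 0.71, with the first pull-down well under the second. Its adjusted p was 0.113 without the first VTA input, and 0.0568 if the first pull-down was left out. Etv1, a layer 5 transcription factor gene, differed by 0.15. Tnnc1, the calcium-binding troponin of slow muscle that is also made by some cortical neurons, fell by 0.37, a call lost without either input or the first pull-down (adjusted p from 0.0704 to 0.145).

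Of 16 layer 2/3 intratelencephalic genes 7 fell (1, 4, 3 and 5 with each VTA array left out, 4 with centred arrays) and 1 rose (2 with centred arrays), with a median of -0.22. Nectin3, an adhesion protein gene, lay at 7.17 and 7.25 against 7.83 and 7.83, fell by 0.62 and held throughout. Calb1, the calcium buffer calbindin, fell by 0.58, and Penk, the enkephalin precursor, by 0.60. Neither passed without the first VTA input (adjusted p = 0.0885 and 0.115), and Calb1 did not pass without the first pull-down either (adjusted p = 0.0513). Cux2, an upper-layer homeobox gene, differed by -0.20 and did not pass the threshold. Of 18 layer 6 and subplate genes 4 fell (0, 3, 1 and 5 with each VTA array left out, 0 with centred arrays) and none rose (1 with centred arrays), with a median of -0.26. The share of falls in the layer 6 list is near the 25.9% over all genes tested. Tle4 (-0.12) and Foxp2 (-0.26), both layer 6 transcription regulators, did not pass. Of the 4 tested near-projecting genes, Nxph3, a neurexin ligand gene, rose by 0.56 and Vwc2l fell by 0.75. Vwc2l held throughout, and Nxph3 lost its call without the first VTA input (0.44, adjusted p = 0.0745).

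Genes shared by most glutamatergic cortical neurons changed little. Of 18 tested 1 rose and 2 fell (3 and 0 with centred arrays), and the median was -0.10 (0.09 with centred arrays). Slc17a7, the vesicular glutamate transporter of cortical neurons, lay at 11.51 and 11.54 in the pull-downs and at 11.61 and 11.60 in the inputs, a difference of -0.08 (SE 0.09, adjusted p = 0.5). Camk2a, a kinase of excitatory synapses, differed by -0.23. The rise was that of Cnih2, an AMPA receptor auxiliary subunit (0.44), whose adjusted p was 0.0748, 0.0649 and 0.0524 without the first input, the second input and the first pull-down. The falls were Tbr1 (-0.27) and Slc17a6 (-0.41), and no call of a fall was left in this list without any one of the VTA arrays.

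Several interneuron genes fell in the pull-down. Of 26 GABAergic interneuron genes 12 fell (1, 7, 9 and 12 with each VTA array left out, 7 with centred arrays) and none rose (2 with centred arrays), with a median of -0.30. Their mean level was 7.48 and 7.52 in the pull-downs and 7.84 and 7.80 in the inputs. Calb2, among the falls, passed the filter through inputs alone, and of the other 25 genes 11 fell. Gad2, a GABA-synthesising enzyme, lay at 8.54 and 8.90 against 9.45 and 9.46, a fall of 0.73 (SE 0.12, adjusted p = 0.0042). It stood at -0.74 with an adjusted p of 0.0511 without the first VTA input. Adarb2, of interneurons from the caudal ganglionic eminence, fell by 0.58 and held throughout. Erbb4, the neuregulin receptor of interneurons, fell by 0.59 (adjusted p = 0.0575 without the first input) and Vip by 0.39. The call of Vip was lost without either input and without the first pull-down. Gad1 (-0.28), Pvalb (-0.21), Sst (0.20) and the vesicular GABA transporter gene Slc32a1 (0.03) did not pass the threshold, so the members did not move as one. Of 8 genes typical of striatal medium spiny neurons 3 fell, Drd1 (-0.93), Penk (-0.60) and Rgs9 (-0.28), and the median was -0.23. That count was 1, 2, 2 and 2 with each VTA array left out and 2 with centred arrays.

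Many glial genes fell in the pull-down too. Of 16 oligodendrocyte genes 13 fell (5, 8, 9 and 13 with each VTA array left out, 7 with centred arrays) and none rose, with a median of -0.47. Both pull-downs lay below both inputs in all 16, where 53.0% of all tested genes did so. The mean level was 8.62 and 8.67 against 9.16 and 9.15. Gjc3, a gap junction gene of myelinating glia, lay at 8.70 and 8.78 against 10.06 and 9.79, a fall of 1.18 (SE 0.12, adjusted p = 0.001). Aspa, the enzyme that cleaves N-acetylaspartate, fell by 0.96 and Mal, a myelin lipid raft protein, by 0.83. All 3 held throughout. Mog, a surface protein of myelin, fell by 0.60 (adjusted p = 0.0564 without the second input), and Mbp, myelin basic protein, differed by -0.03 and did not pass. Of 14 genes of oligodendrocyte precursors 8 fell (1, 4, 3 and 8 with each VTA array left out, 3 with centred arrays) and none rose (2 with centred arrays). Pdgfra, the receptor that marks those cells, lay at 7.60 and 7.79 against 8.53 and 8.80, fell by 0.97 and held throughout.

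Of 18 astrocyte genes 8 fell (2, 7, 7 and 8 with each VTA array left out, 7 with centred arrays) and none rose (1 with centred arrays), with a median of -0.21. Dio2, which activates thyroid hormone, lay at 7.30 and 7.55 against 8.59 and 8.50, a fall of 1.12 (SE 0.12, adjusted p = 0.001) that held throughout. Gfap, the intermediate filament of astrocytes, fell by 0.63 and held throughout. Aqp4, the water channel of astrocyte endfeet, fell by 0.66 and Slc1a3, a glutamate transporter gene, by 0.60, and both lost the call without the first input (adjusted p = 0.0701 and 0.0534). Aldh1l1 (-0.08) and Slc1a2 (-0.13), also widely used as astrocyte markers, did not pass. The mean level of the list was 8.46 and 8.51 in the pull-downs and 8.78 and 8.82 in the inputs.

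Of 19 microglia genes 10 fell (4, 8, 7 and 11 with each VTA array left out, 6 with centred arrays) and none rose, with a median of -0.37. Fcrls, at 6.88 and 7.25 against 7.83 and 7.85, fell by 0.78, and Ly86 by 0.70. Csf1r, the receptor on which microglia depend, fell by 0.57 and the complement gene C1qa by 0.54. These 4 held throughout. Cx3cr1 (-0.24), Tmem119 (0.12) and Trem2 (-0.28) did not pass. Mean levels of the list were 7.25 and 7.38 against 7.72 and 7.68.

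Of 14 endothelial genes 7 fell (1, 4, 3 and 7 with each VTA array left out, 3 with centred arrays) and 1 rose, with a median of -0.40. Slc16a1, a lactate transporter gene, fell by 0.67 and held throughout, and the organic anion transporter gene Slco1a4 fell by 0.68. The call of Slco1a4 was lost without the first input or the first pull-down. Egfl7, a secreted endothelial protein and the host gene of miR-126, was the 1 that rose: it lay at 7.37 and 7.24 against 6.64 and 6.80, a difference of 0.59 (0.50, adjusted p = 0.0538 without the first input). Cldn5, the tight junction protein of brain endothelium, differed by 0.00. Of 17 genes of mural cells and fibroblasts 5 fell (1, 2, 3 and 5 with each VTA array left out, 1 with centred arrays) and none rose. That share of falls is near the 25.9% over all genes tested. Rgs5 of pericytes fell by 0.77 and held throughout.

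**Figure D3:**
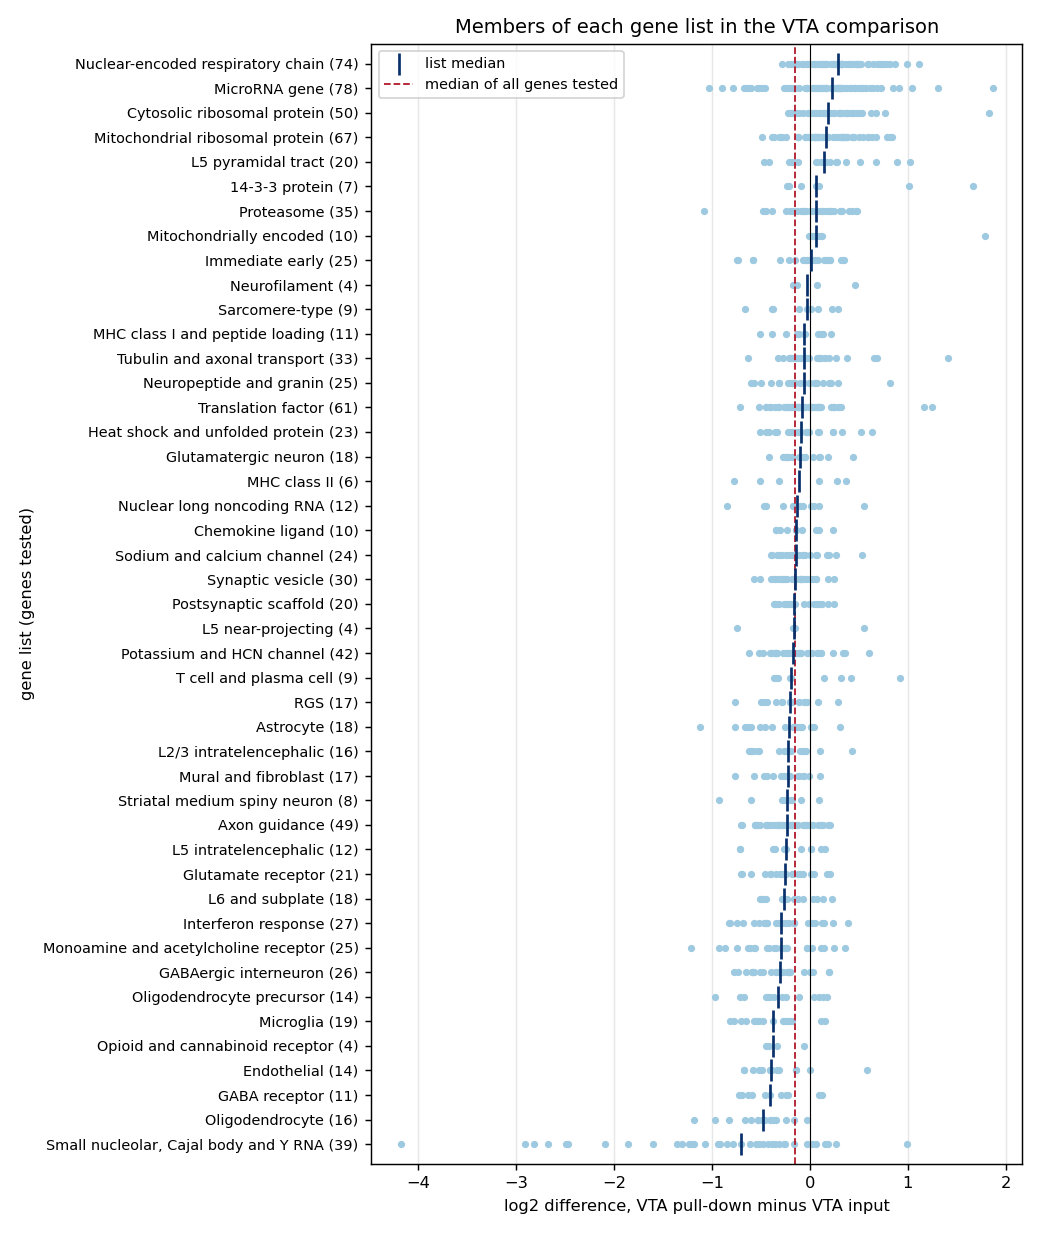
Log2 difference, VTA pull-down minus VTA input, of each tested member of the lists with at least 4 members (dots), with the list median (bar) and the median over all tested genes (dashed line, -0.15). Respiratory chain genes have the highest list median (0.29) and the small nucleolar list the lowest (-0.70).

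On the 4 VTA arrays the mean levels of the immune lists ran from 5.52 (T cell and plasma cell) to 7.09 (chemokine). Those of all genes tested ran from 7.63 to 7.83. Of 27 interferon response genes 10 fell (3, 4, 5 and 11 with each VTA array left out, 3 with centred arrays) and none rose (1 with centred arrays), with a median of -0.29. Irf8, among the falls, passed the filter through the NAC inputs alone, and of the other 26 genes 9 fell. Lgals3bp fell by 0.81 and the interferon signalling factor Irf9 by 0.74, and both held throughout. Of 11 MHC class I and peptide loading genes 2 fell, H2-T23 (-0.51) and Tap1 (-0.38), and B2m (-0.11) did not pass. Of 6 MHC class II genes H2-Ab1 (-0.51) and H2-Oa (-0.32) fell and their regulator Ciita rose by 0.37 from input levels under the array medians. None of the 5 calls in the MHC lists was left without the first VTA input, and with centred arrays these lists had no fall and 3 rises, all in class II. Of 9 T cell and plasma cell genes Ighg3 (0.92) and Cd8b1 (0.42) rose, both from levels under the array medians in the pull-downs as well as the inputs, and no call was left without the first VTA input. Ighg3 passed the filter through the NAC inputs alone. Of 10 chemokine genes Cxcl14, a gene also made by interneurons, fell by 0.34, a call lost without the first input or either pull-down.

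Immediate early genes, which neurons switch on with activity, went both ways. Of 25 tested 3 rose (0, 0, 1 and 1 with each VTA array left out, 8 with centred arrays) and 5 fell (3, 3, 3 and 4, and 3 with centred arrays). On the deposited scale the share of falls is near the 25.9% over all genes tested. The median was 0.01, and it turned to -0.06 with arrays centred on all probe sets. Ptgs2, the inducible cyclooxygenase, lay at 7.48 and 7.44 against 8.29 and 8.13 and fell by 0.75, and Jun fell by 0.73. Nptx2, a secreted pentraxin that clusters AMPA receptors, fell by 0.58. These 3 held throughout. Junb (0.35), Egr3 (0.32) and Egr4 (0.34) rose, whereas Fos (-0.03), Arc (-0.15) and Egr1 (0.20) did not pass.

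Many receptors for monoamines and acetylcholine fell. Of 25 tested 12 did so (3, 6, 7 and 11 with each VTA array left out, 7 with centred arrays) and 1 rose (3 with centred arrays), with a median of -0.30. Chrna5, among the falls, passed the filter through the VTA inputs alone, and of the other 24 genes 11 fell. Htr2c, a serotonin receptor coupled to Gq, lay at 6.65 and 6.60 in the pull-downs and at 7.87 and 7.82 in the inputs, a fall of 1.22 (SE 0.13, adjusted p = 0.0011). Drd1, the dopamine D1 receptor, lay at 6.29 and 6.20 against 7.20 and 7.15, a fall of 0.93 (SE 0.11, adjusted p = 0.0017). Both held throughout, and in both the groups stood apart by more than the gap within either. The muscarinic receptor gene Chrm2 fell by 0.86 and Htr2a, the main target of serotonergic hallucinogens, by 0.63. They stood at -0.79 (adjusted p = 0.0761) and -0.65 (adjusted p = 0.0675) without the first VTA input. Drd2 (-0.26), Drd5 (-0.24) and Chrm1 (0.14) did not pass. Htr6 rose by 0.36, and its call was lost without either input, without the second pull-down (0.22, adjusted p = 0.197) and without either NAC input. Of 4 opioid and cannabinoid receptors Oprd1 (-0.34) and Oprl1 (-0.42) fell and Cnr1 (-0.06) did not pass. Neither fall was left with centred arrays or without any one of the VTA arrays other than the second pull-down.

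Of 21 ionotropic and metabotropic glutamate receptor genes 8 fell (2, 5, 3 and 8 with each VTA array left out, 4 with centred arrays) and none rose (1 with centred arrays), with a median of -0.26. Grin3a, an NMDA subunit that lowers calcium entry, lay at 7.27 and 7.27 against 7.93 and 8.02 and fell by 0.70. The kainate subunit gene Grik1 fell by 0.69. Both held throughout. Gria2 (-0.18), Grin2a (-0.12) and Grin2b (-0.25), subunits of AMPA and NMDA receptors of most cortical neurons, did not pass. Of 11 GABA receptor genes 6 fell (2, 5, 4 and 6 with each VTA array left out, 4 with centred arrays) and none rose (1 with centred arrays), with a median of -0.40. Gabra2 lay at 8.30 and 8.36 against 9.19 and 8.91 and fell by 0.72, and Gabra3 lay at 9.78 and 9.77 against 10.50 and 10.44 and fell by 0.70. Both alpha subunits held throughout. Gabra5 (0.10) and the GABA-B subunit gene Gabbr1 (0.13) did not pass.

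Of 42 potassium and HCN channel genes 12 fell (0, 4, 3 and 9 with each VTA array left out, 2 with centred arrays) and 3 rose (0, 2, 2 and 1, and 4 with centred arrays), with a median of -0.17 (0.03 with centred arrays). Kcnj4, an inward rectifier, lay at 9.08 and 9.23 against 8.39 and 8.70 and rose by 0.61, with 0.45 and an adjusted p of 0.0943 without the first input. The list's shares of falls and rises are near those over all genes tested, 25.9% and 5.44%. Hcn2, a channel of the hyperpolarization-activated current, rose by 0.36 and the small-conductance channel gene Kcnn2 by 0.34. Hcn2 stood at 0.22 (adjusted p = 0.26) without the first VTA input. Kcnh5 fell by 0.62 (adjusted p = 0.0521 without the first input). Among 24 genes of sodium and calcium channels there were 2 rises and 4 falls (4 and 0 with centred arrays), and none of these calls was left without the first VTA input. Cacng8, an AMPA receptor regulatory subunit, rose by 0.53.

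Of 49 axon guidance genes 19 fell (2, 7, 7 and 19 with each VTA array left out, 6 with centred arrays) and none rose (5 with centred arrays), with a median of -0.23. Unc5d, a netrin receptor gene, lay at 6.98 and 6.89 against 7.66 and 7.62 and fell by 0.70. The ephrin receptor gene Epha3 fell by 0.69. Both held throughout. Dcc (-0.31), Nrp2 (-0.44) and Slit2 (-0.56) were among the other falls and Robo1 (0.19) did not pass. Synaptic lists had fewer calls: 5 of 30 synaptic vesicle genes fell (0, 1, 2 and 5 with each VTA array left out) and 4 of 20 postsynaptic scaffold genes fell (0, 1, 0 and 4), with medians of -0.15 and -0.16 (0.05 and 0.04 with centred arrays). On the deposited scale both shares of falls are not far under the 25.9% over all genes tested, and both medians are near the -0.15 of all genes. With centred arrays the vesicle list had 2 rises and 1 fall and the scaffold list 2 rises and 0 falls. Syt1 (-0.17), Snap25 (-0.06) and Dlg4 (0.07) did not pass. Of 17 RGS genes 6 fell (1, 2, 1 and 5 with each VTA array left out, 2 with centred arrays), of which Rgs5 fell most.

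Of 25 neuropeptide and granin genes 1 rose (1, 1, 2 and 1 with each VTA array left out) and 5 fell (0, 1, 2 and 4). On the deposited scale these shares of rises and falls are near those over all genes tested, 5.44% and 25.9%. With centred arrays the balance turned to 6 rises and 1 fall. Vgf, a secretory granule protein, lay at 10.45 and 10.38 in the pull-downs and at 9.49 and 9.70 in the inputs, rose by 0.82 (SE 0.10, adjusted p = 0.0019) and held throughout. The falls were Penk (-0.60), Pnoc (-0.57), Nppc (-0.50), Vip (-0.39) and Tac2 (-0.32), while Cck (-0.20), Npy (0.13) and Bdnf (0.05) did not pass.

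Large axons are rich in neurofilaments and microtubules. Of 4 neurofilament genes Nefm lay at 8.95 and 8.89 against 8.39 and 8.53 and rose by 0.46 (0.39, adjusted p = 0.0795 without the first input), whereas Nefh (-0.13), Nefl (-0.17) and Ina (0.07) did not pass. Of 33 genes of tubulins and axonal transport 4 rose (0, 4, 3 and 3 with each VTA array left out, 8 with centred arrays), namely Tuba1b (1.41), the dynein light chain Dynll2 (0.69), Tubb2b (0.65) and Dynlrb1 (0.38), and 2 fell (1 with centred arrays). Tubb4a, a tubulin abundant in oligodendrocytes, lay at 11.74 and 11.78 against 12.40 and 12.39, fell by 0.63 and held throughout. Of 7 genes of 14-3-3 proteins Ywhah (1.67) and Ywhag (1.02) rose and neither call was left without the first VTA input.

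Many genes of the respiratory chain and of ribosomes rose. Of 74 respiratory chain subunits encoded in the nucleus 35 rose (7, 24, 27 and 27 with each VTA array left out, 49 with centred arrays) and none fell, with a median of 0.29. Cox6b2, among the rises, passed the filter through pull-downs alone, and of the other 73 genes 34 rose. Ndufb10, a complex I subunit, lay at 8.42 and 8.46 against 7.47 and 7.69, a rise of 0.87 (SE 0.11, adjusted p = 0.0018). Atp5k, an ATP synthase subunit, rose by 0.81 and Ndufa7, of complex I, by 0.75. These 3 held throughout. Cox7b, of cytochrome oxidase, lay at 10.26 and 10.36 against 9.22 and 9.43 and rose by 0.99 (0.88, adjusted p = 0.0905 without the first input). Of the 10 mitochondrially encoded genes ND6 rose, and the other 9 lay between -0.01 and 0.12.

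Of 67 mitochondrial ribosomal protein genes 20 rose (2, 11, 13 and 14 with each VTA array left out, 36 with centred arrays) and 2 fell (0 with centred arrays), with a median of 0.16. Mrpl36, among the rises, passed the filter through pull-downs alone, and of the other 66 genes 19 rose. Mrpl54 (0.84) and Mrpl42 (0.81) held throughout. Of 50 cytosolic ribosomal protein genes 14 rose (2, 15, 9 and 11 with each VTA array left out, 26 with centred arrays) and none fell, with a median of 0.19. After Rpl10a the largest rise was that of Rps28, which lay at 10.37 and 10.42 against 9.44 and 9.82 and rose by 0.76 (0.58, adjusted p = 0.0696 without the first input). Rpl28 rose by 0.53 and held throughout. The cytosolic list without Rpl10a ranged from -0.22 (Rpl4) to 0.76. Many ribosomal protein genes have near-identical processed copies, so their probe sets may read several loci.

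Of 61 translation factor genes 3 rose, Tma7, Tpt1 and Eif3i (0.31), and 7 fell. With each VTA array left out there were 1, 3, 4 and 3 rises and 1, 4, 1 and 9 falls, and with centred arrays the balance turned to 13 rises and 1 fall. Eef1a1 (0.02) and Eef2 (-0.22), the elongation factors, did not pass. Of 35 proteasome genes 7 rose (0, 5, 4 and 4 with each VTA array left out, 12 with centred arrays) and 4 fell (1, 2, 1 and 4, and 1 with centred arrays). Psmd5, an assembly chaperone of the 19S particle, lay at 7.90 and 8.04 against 9.20 and 8.90, fell by 1.08 (adjusted p = 0.0012) and held throughout, in contrast to the core subunit Psmb1 (0.43) and the ATPase Psmc1 (0.47). Among 23 genes of the heat shock and unfolded protein responses 2 rose, the mitochondrial chaperonin Hspe1 (0.64) and the stress transcription factor Atf4 (0.53), and 4 fell (0, 1, 2 and 3 with each VTA array left out), among them Hspa5 (-0.42), the main chaperone of the endoplasmic reticulum. None of the calls in that list was left without the first VTA input, and with centred arrays it had 6 rises and 0 falls.

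Of 78 microRNA genes tested 20 rose (2, 8, 8 and 25 with each VTA array left out, 32 with centred arrays). A further 7 fell (0, 3, 8 and 7, and 5 with centred arrays), and the median was 0.22. Of the 78, 2 passed the filter through inputs alone, both falls, and 6 through pull-downs alone, of which Mir328 rose. The other 70 had 19 rises, 5 falls and a median of 0.17. A mature sequence was at hand for 63 of the 78 and for 21 of the 27 that passed the threshold. Mir181d, of the miR-181 family, lay at 7.75 and 7.77 in the pull-downs and at 6.78 and 6.66 in the inputs, a rise of 1.05 (SE 0.18, adjusted p = 0.0047). Leaving out the first VTA input left it at 1.10 with an adjusted p of 0.0511. Mir92b, with the seed shared by the miR-25 and miR-92 family, lay at 6.94 and 6.65 against 6.11 and 6.12 and rose by 0.68. Mir212, a target of the transcription factor CREB in neurons, lay at 6.56 and 6.39 against 6.05 and 6.01 and rose by 0.44. The calls of Mir92b and Mir212 were lost without either input and without the first pull-down (adjusted p from 0.0541 to 0.0809 and from 0.0636 to 0.0751).

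Mir9-1 and Mir9-2, the tested genes of miR-9, a microRNA of neural progenitors and neurons, were lower in the pull-down. Mir9-1 lay at 5.24 and 5.53 against 6.38 and 6.19, a fall of 0.90 whose pull-down levels are under the array medians. Mir9-2 lay at 6.30 and 6.73 against 7.37 and 7.22, a fall of 0.78. Mir9-1 stood at -0.81 (adjusted p = 0.0681) and Mir9-2 at -0.71 (adjusted p = 0.0881) without the first VTA input, and Mir9-2 at -0.57 (adjusted p = 0.0565) without the first pull-down. The 2 probe sets may read host transcripts, and they encode the same mature sequence, so they are not replicates of it. Mir493, of the imprinted Dlk1-Dio3 cluster, lay at 6.33 and 5.96 against 7.29 and 7.06 and fell by 1.03. Its call was lost without either input or the second pull-down (adjusted p from 0.0509 to 0.12). One of the other falls was Mir100hg, a long host transcript and not a microRNA precursor.

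**Figure D4:**
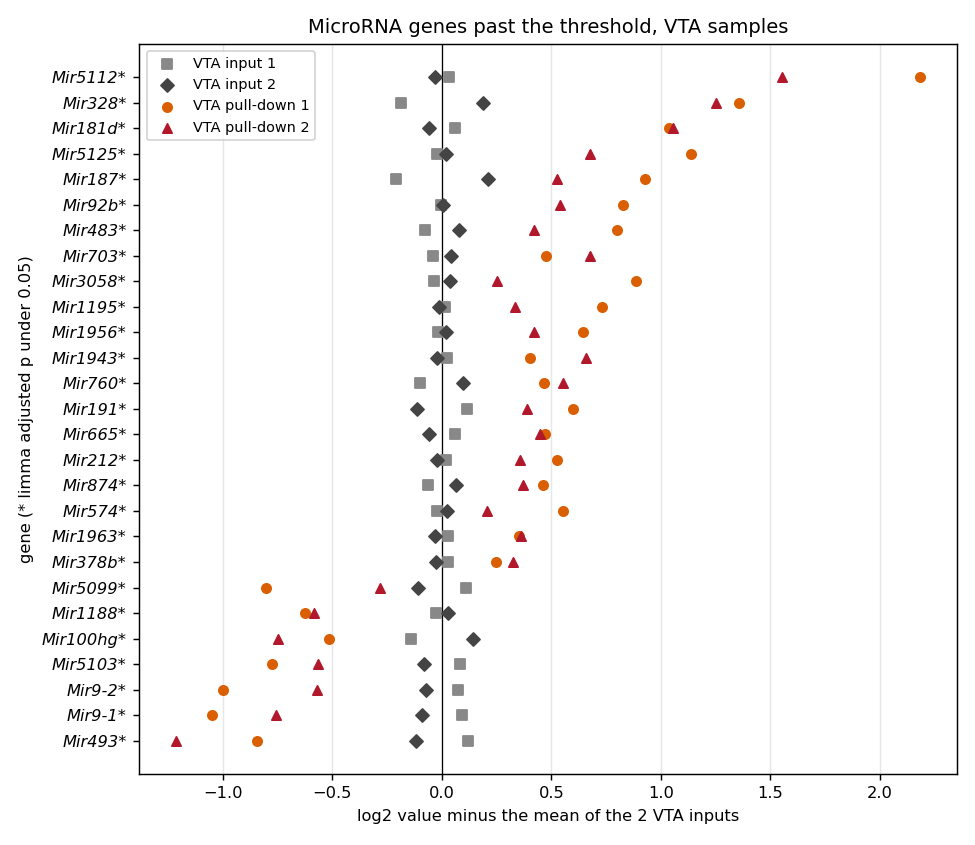
Log2 value of each VTA array minus the mean of the 2 VTA inputs for the 27 microRNA genes past the threshold. In 20 genes the pull-downs (circles, triangles) lie to the right of the inputs and in 7 to the left, from Mir5112 (1.87) to Mir493 (-1.03).

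The same comparison in cells labelled from the NAC used separate arrays, which allows a test of the difference between the enrichments. Of the 637 genes that rose in the VTA pull-down, 245 also rose in the NAC pull-down, which is 38.5% of the VTA rises and 48.2% of the 508 NAC rises (4.34% of genes tested). Of the 3034 that fell, 698 also fell there, which is 23% of the VTA falls and 74.4% of the 938 NAC falls (8.01% of genes tested). Calls in opposite directions were 2 among the VTA rises and 9 among the VTA falls. Whether or not the NAC difference passed, its sign was the same for 591 of the VTA rises (92.8%) and 2768 of the VTA falls (91.2%). The difference of the enrichments itself passed the threshold in 8 genes (0.0683%), 1 higher (0.00854%) and 7 lower (0.0598%) for VTA. Of these, Ighg3 and Dynlrb2 passed the filter through the NAC inputs alone and the NAC pull-downs alone, so their values had to differ between groups. At an unadjusted p under 0.05 there were 1409 genes, 279 higher and 1130 lower. A single gene passed without the first VTA pull-down, without the first VTA input or without either NAC input, and 2 passed without the second VTA input.

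Xirp2, an actin-binding protein of muscle attachments, lay at 7.08 and 6.96 in the VTA pull-downs against 7.72 and 7.63 in their inputs, and at 8.51 and 8.41 in the NAC pull-downs against 7.25 and 7.34. It thus fell in one comparison and rose in the other, and the enrichments differed by -1.83 (SE 0.14, adjusted p = 0.0012). This held with each of the 8 arrays left out. Tnnc1 differed between the enrichments by -1.27, with a VTA difference of -0.37 and a NAC difference of 0.89. Nptx2 differed by -1.02, with a VTA difference of -0.58 and a NAC difference of 0.44. Dkkl1 lay at 8.40 and 8.35 against 8.58 and 8.60 in the VTA arrays, a difference of -0.22 that did not pass, and rose by 0.93 in the NAC pull-down, so the enrichments differed by -1.15. Apart from Xirp2, each of these genes lost the call of the difference without the first VTA pull-down, without either VTA input and without either NAC input.

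No gene of the pyramidal tract list passed the test of the difference. Its median enrichment was 0.14 for VTA and -0.21 for NAC, and the median of its differences was 0.38, against -0.09 over all genes tested. Pou3f1 lay at 0.89 for VTA and -0.09 for NAC, a difference of 0.98 (adjusted p = 0.13). Tcerg1l lay at 0.67 and -0.29, a difference of 0.96 (adjusted p = 0.12), and Chst8 at 1.02 and 0.31, a difference of 0.72 (adjusted p = 0.22). Fezf2 lay at 0.51 and -0.03. Rpl10a rose by 1.83 for VTA and by 1.15 for NAC, a difference of 0.68 that did not pass (adjusted p = 0.27). Oligodendrocyte genes had a median of -0.47 for VTA and -0.57 for NAC, and respiratory chain genes had medians of 0.29 and 0.34.

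**Figure D5:**
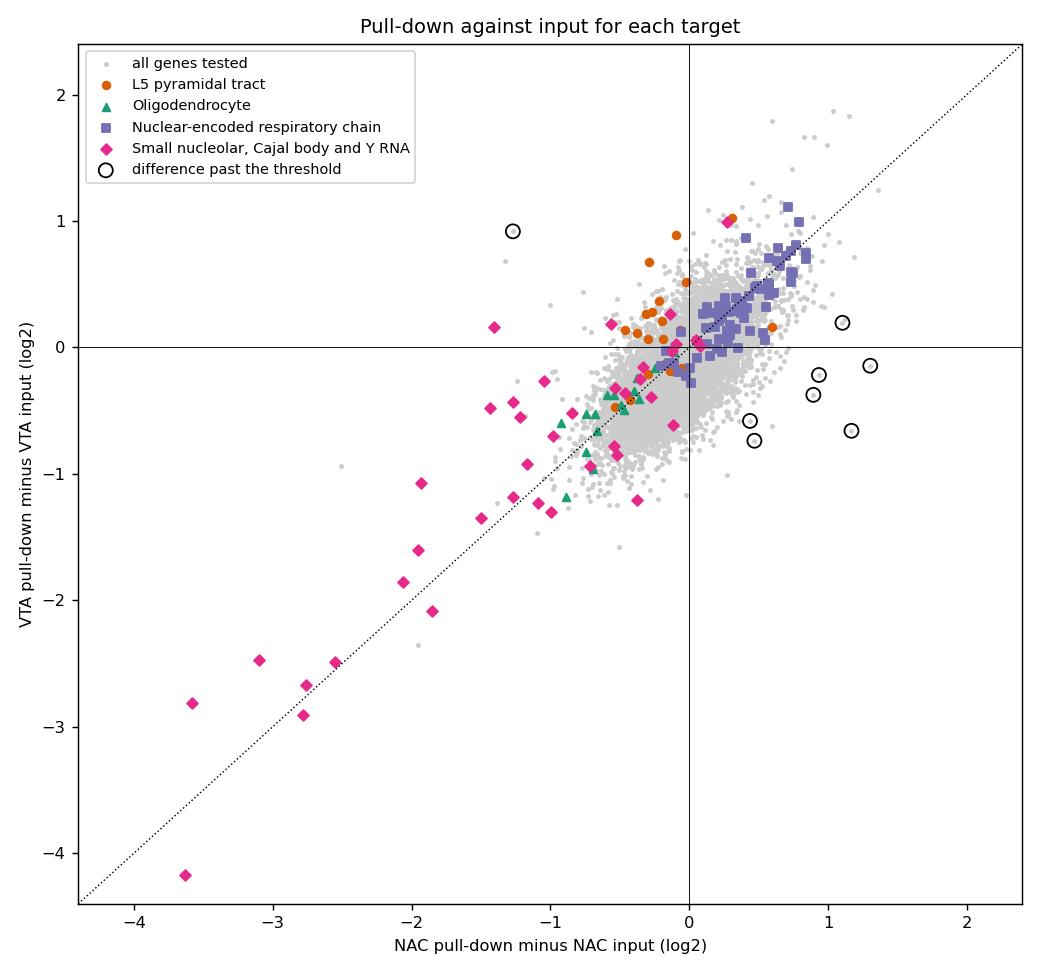
Log2 difference, pull-down minus input, for VTA (vertical) against NAC (horizontal), 1 point per tested gene, with 4 lists coloured and the 8 genes whose enrichments differed past the threshold circled. Pyramidal tract genes lie mostly above the dotted line of equal differences, though none is circled, and Xirp2 is among the 7 circles below it.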

How the data were processed

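The authors deposited 1 table of log2 values, made with Transcriptome Analysis Console per the submitters' processing notes. The version, background correction and normalization were not given in the sources used here. With every probe set included, the 8 arrays had medians from 5.08 to 5.22. Of 41345 probe sets 23521 had 1 symbol in the platform annotation, 1814 several and 16010 none. They named 22180 genes, each represented by its probe set of highest mean, and 11712 with at least 2 of 8 arrays above the array's median over the named genes (5.86 to 5.98) were tested. A gene is called under the array medians where its values do not exceed that median. limma 3.58.1 in R 4.3.3 fitted a mean per group to all 8 arrays (4 residual degrees of freedom), with two-sided moderated tests and Benjamini-Hochberg adjustment over all tested genes. The number of arrays limits the precision. The code was tested on simulated data.

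Named were the 15 largest rises and falls without predicted models, taken only where the pull-downs did not overlap the inputs. Also named were up to 5 members of each list with the smallest p, a panel of cell type markers, and the largest differences between VTA and NAC. Some genes of the panel are not reported here. Other list members are named to describe a list and were chosen with their values seen, as was the microRNA list. The members and lists were chosen with earlier results of these data known. Alternatives were other scalings, filters, probe set rules, variance models, the VTA arrays alone, a replicate block and each array left out.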

Additional observations from a re-analysis of the deposited data

Results flagged for a closer look

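Of all genes tested, 8 had a VTA enrichment (pull-down minus input) that differed from the NAC enrichment by the limma test of that difference. Lower for VTA were Xirp2 (-1.83), Dynlrb2 (-1.45), Tnnc1 (-1.27), Gm10139 (-1.21), Dkkl1 (-1.15), Nptx2 (-1.02) and 1700007K13Rik (-0.91), and Ighg3 was higher (2.19). Dynlrb2 lay at 5.30 and 5.50 in the VTA pull-downs, and at 6.63 and 6.31 in the NAC pull-downs. It was under the array medians on the other 6 arrays, so it passed the filter through the NAC pull-downs alone. Gm10139, a predicted gene, lay at 6.70 and 6.43 against 7.23 and 7.37 in the VTA arrays and at 7.34 and 7.44 in the NAC pull-downs. 1700007K13Rik lay at 6.75 and 6.67 against 6.51 and 6.51 in the VTA arrays and at 7.49 and 7.49 against 6.37 and 6.40 in the NAC arrays. Ighg3, an immunoglobulin constant region, was under the array medians on all 4 VTA arrays (4.53 and 3.96 against 3.21 and 3.45) and lay at 4.55 and 5.08 against 6.02 and 6.14 in the NAC arrays. It passed the filter through the NAC inputs alone, so neither gene's difference supports more than its values show. Dynlrb2 and Ighg3 also lost the call of the difference without the first VTA pull-down, without either VTA input and without either NAC input.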

How the results depend on the processing

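No named gene turned its direction past the threshold under any alternative run. With the VTA arrays alone in the fit, 2937 genes passed the threshold (483 higher, 2454 lower). The 3671 genes past the threshold became 1907 without a filter (552 higher, 1355 lower) and 415 to 3713 with single arrays left out (79 to 626 higher, 336 to 3176 lower), where a lone array is assumed to vary like the other groups. Higher calls were 375 with arrays centred on all probe sets and 1719 centred on the tested genes (added after seeing the data), and lower calls were 1083 there and 1846 after quantile normalization. Of 198 named calls, 142 were past the threshold with arrays centred on the tested genes, 137 without a filter and 70 without the first VTA input. The difference between VTA and NAC enrichment gave 8 genes (1 higher, 7 lower), and 2 (0 higher, 2 lower) after quantile normalization, 1 (0 higher, 1 lower) without a filter, 30 (9 higher, 21 lower) with a variance trend, 6 (2 higher, 4 lower) centred on the tested genes, 2 higher centred on all probe sets or with the stricter filter, 0 higher with averaged probe sets, and 1 to 8 (0 to 2 higher, 1 to 7 lower) with arrays left out. With the replicate number as a block, 699 genes rose and 3191 fell, and the difference gave 1 gene, Xirp2 (0 higher, 1 lower). Deviations of same-numbered arrays correlated at -0.02 for VTA and 0.30 for NAC, and the labels do not say whether the numbers pair the arrays. Array values carry no read depth, and differences from probe sets under the array medians are not exact in size.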
